A study of Rattus norvegicus with 62 samples.

Results

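The livers of male Crj:CD(SD)IGS rats initiated with thioacetamide and then given phenobarbital (5w TAA/PB, 5 rats) were set against livers of rats that received the initiator's vehicle and the same phenobarbital (5w MC/PB, 4 rats). The arrays were chosen by their titles, 9 of the 62 arrays of the study, and every gene was read. Thioacetamide was given at a dose labelled 45 mpk, and methylcellulose (MC) was the vehicle. Initiation lasted 1 or 2 weeks, without a statement of which applied to thioacetamide, and a withdrawal of 2 weeks followed. Phenobarbital at 500 ppm in the drinking water then ran for 6 weeks, and part of the liver was removed 1 week after it began. That piece is the 5w sample, so both groups had been on phenobarbital for 1 week. The terminal liver of the same animals is the 10w sample, which had regrown after hepatectomy on continued phenobarbital. The other 5w groups used here received diethylnitrosamine at 3 or 30 mpk (DEN3/PB, 5 rats, and DEN30/PB, 4 rats), methapyrilene at 100 mpk (MP/PB, 5 rats), acetaminophen at 1000 mpk (APAP/PB, 4 rats), or methylcellulose followed by plain water (MC/water, 4 rats).

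Thioacetamide is a hepatotoxin that is itself inert. Flavin-containing monooxygenases and the cytochrome P450 Cyp2e1 oxidise it stepwise to a reactive S,S-dioxide that binds liver proteins, mostly in hepatocytes around the central vein. Continued dosing is used in rats to produce fibrosis and bile duct proliferation, and phenobarbital is a classical promoter of liver tumours that works through the nuclear receptor CAR. The samples described here were taken after thioacetamide had been withdrawn.

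Liver signal was similar in both groups at the level of whole arrays. The share of probe sets with a signal of at least 100 was 51.0% to 52.7% in TAA/PB and 50.6% to 53.1% in MC/PB, and rank correlations between arrays were 0.950 to 0.966 within TAA/PB, 0.953 to 0.965 within MC/PB and 0.945 to 0.964 across them. All 5 hepatocyte markers fixed for the check (Alb, Ttr, Apoa1, Hnf4a and Cyp2e1) were present, with a summed signal of 165686 to 219624 in TAA/PB and 148014 to 177751 in MC/PB. The 62 arrays also fell into sets of 30 and 32 by the sign of their score on the leading principal component of within-group residuals (14.8% of that variance). The sets were read from the data, and no label names them. TAA/PB had 2 arrays in the first set and 3 in the second, and MC/PB had 2 in each, so differences within each set are given where they bear on a gene.

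At hepatectomy 2 genes rose and none fell. Pbsn, which encodes the lipocalin probasin, a secreted protein known chiefly from the rat prostate, was above the level taken as background in every thioacetamide liver and in no MC/PB liver, and Hsd11b1, the liver enzyme that regenerates active glucocorticoid from its inactive 11-keto form, was 1.41-fold higher. These were the genes with an adjusted p under 0.05 among 10491 tested (0.0191%), by limma on log2(signal + 25) with Benjamini-Hochberg adjustment over all genes. Of the 14217 genes that a probe set names singly, these 10491 had a signal of at least 100 on at least 4 of the 31 arrays taken at 5w. Without adjustment 591 genes (5.63%) had p under 0.05, 357 higher (3.4%) and 234 lower (2.23%). The median difference over all genes was 0.0036 on the log2 scale and 51.0% of genes had a positive one. A difference of at least 2-fold was seen for 36 genes (0.343%), 19 higher and 17 lower.

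**Figure D1:**
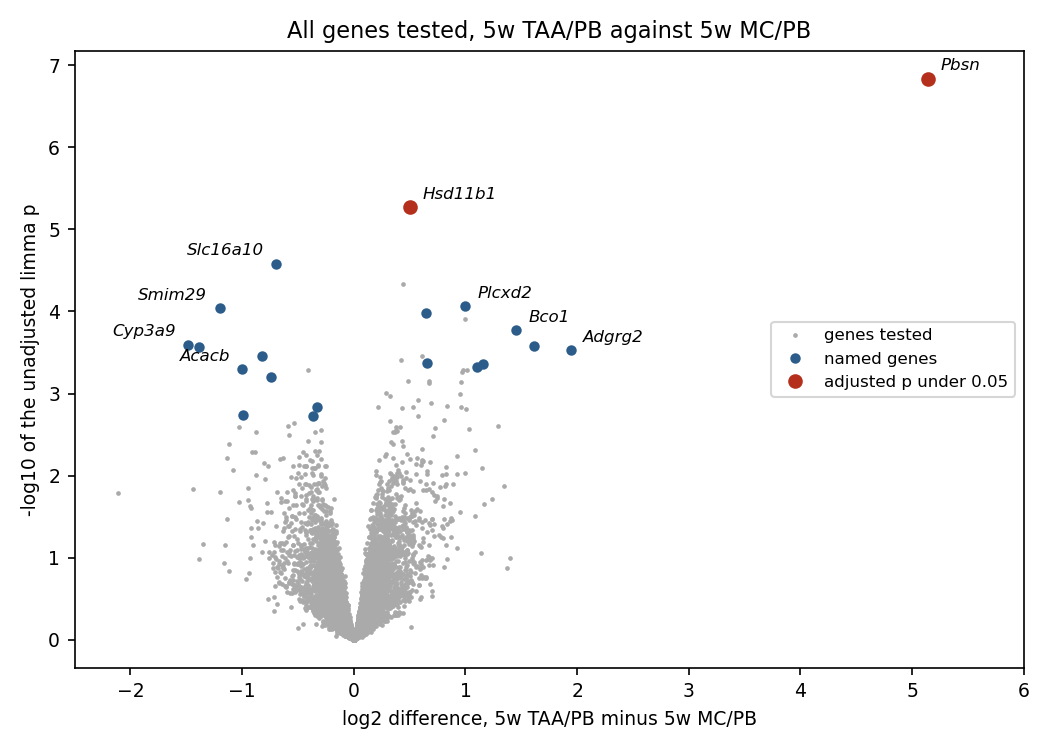
Log2 difference (5w TAA/PB minus 5w MC/PB, horizontal axis) against -log10 of the unadjusted limma p (vertical axis) for the 10491 genes tested, one point a gene. Pbsn and Hsd11b1 are the only points past an adjusted p of 0.05, and Pbsn lies apart at a difference of 5.15.

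Pbsn read 602, 2553, 2861, 1696 and 437 signal units in the 5 TAA/PB livers, against 33.6, 18.98, 1.89 and 1.15 in the 4 MC/PB livers. The groups did not overlap, and all 4 MC/PB values lay below 100, the signal taken here as the lowest to be read as a level. With those 4 set to 100, TAA/PB was at least 12.7-fold higher. The fitted difference was 5.15 ± 0.75 (SE) on the log2 scale with an adjusted limma p of 0.00153. It was 5.08 among arrays of the first set and 5.23 among those of the second, and the call held when any 1 of the 9 arrays was left out. One probe set on the array carries this gene's name, so no second measurement of it was available. In a bulk sample, more RNA per cell and more cells that hold the RNA cannot be told apart.

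The bases before the start of Pbsn are shown because it was the gene with the largest difference. In RefSeq's GRCr8 annotation they lie on the minus strand at chrX:45807984-45808233. The sequence is printed 5′ to 3′ and ends at the base before the start, and capitals mark TGTTCT, the half-site of the androgen and glucocorticoid receptors.
Pbsn: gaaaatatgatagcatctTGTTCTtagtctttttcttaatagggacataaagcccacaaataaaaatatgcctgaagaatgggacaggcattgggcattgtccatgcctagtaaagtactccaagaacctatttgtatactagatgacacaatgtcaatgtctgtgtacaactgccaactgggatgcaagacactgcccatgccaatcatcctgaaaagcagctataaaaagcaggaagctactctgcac
On both strands this 250-base window held TGTTCT 1 time, 232 bases before the start, and 17.5% of 33469 rat promoter windows of the same length held it. A TATAAA box lay 27 bases before the start (12.9% of windows hold one). Neither AGGTCA, the half-site bound by CAR and PXR (14.1% of windows), nor TTCNNNGAA, the STAT5 site (7.67%), was among these letters. These matches describe the letters of the window, and binding was not measured.

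Pbsn was also read above 100 after other initiators. At 5w it ranged from 79.3 to 1215 in DEN3/PB (4 of 5 livers at or above 100), from 50.7 to 739 in DEN30/PB (2 of 4), from 6.28 to 254.5 in MP/PB (1 of 5), and from 2.94 to 163 in APAP/PB (1 of 4). Rats without initiator and without phenobarbital (MC/water) had 12.4 to 43.9, below 100 in all 4 livers. By group mean on the log2 scale the order was TAA/PB, DEN3/PB, DEN30/PB, APAP/PB, MP/PB, MC/water and MC/PB. TAA/PB overlapped with DEN3/PB and DEN30/PB, and each of the groups below them overlapped with its neighbours. Set against the mean of the 4 other initiated groups, TAA/PB was higher by 3.37 ± 0.57 (SE, log2), with an adjusted limma p of 0.0178, the sole gene of 10491 to pass that comparison (0.00953%). At unadjusted p under 0.05 there were 522 genes (4.98%), 2.13% of all higher and 2.85% lower. The call was lost when TAA/PB replicate 2, 3 or 4 was left out (adjusted limma p up to 0.160).

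Hsd11b1 read 25749.6, 22616, 23198, 24505 and 24276 units in TAA/PB, against 16592, 14850.4, 17873 and 18937 in MC/PB. The lowest TAA/PB liver stood above the highest MC/PB liver. The difference was 0.50 ± 0.09 (SE, log2) with an adjusted limma p of 0.0283, and it was 0.50 within each array set. Its size was 0.44 to 0.55 under all alternatives tried, but the call was lost under 5 of 12 of them, and also (adjusted limma p up to 0.111) when TAA/PB replicate 1, 3 or 4 or MC/PB replicate 1 or 2 was left out.

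At 5w Hsd11b1 was 21598 to 25599 in MP/PB, 21912 to 26249 in APAP/PB, 18951 to 24818 in DEN3/PB and 14734 to 17289 in DEN30/PB, and 15416 to 21453 in MC/water. TAA/PB thus overlapped with MP/PB, APAP/PB and DEN3/PB, and lay above every DEN30/PB and MC/water liver. Against the mean of the 4 other initiated groups its difference was 0.21 ± 0.07 (SE, log2) with an adjusted limma p of 0.845, which did not pass.

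**Figure D2:**
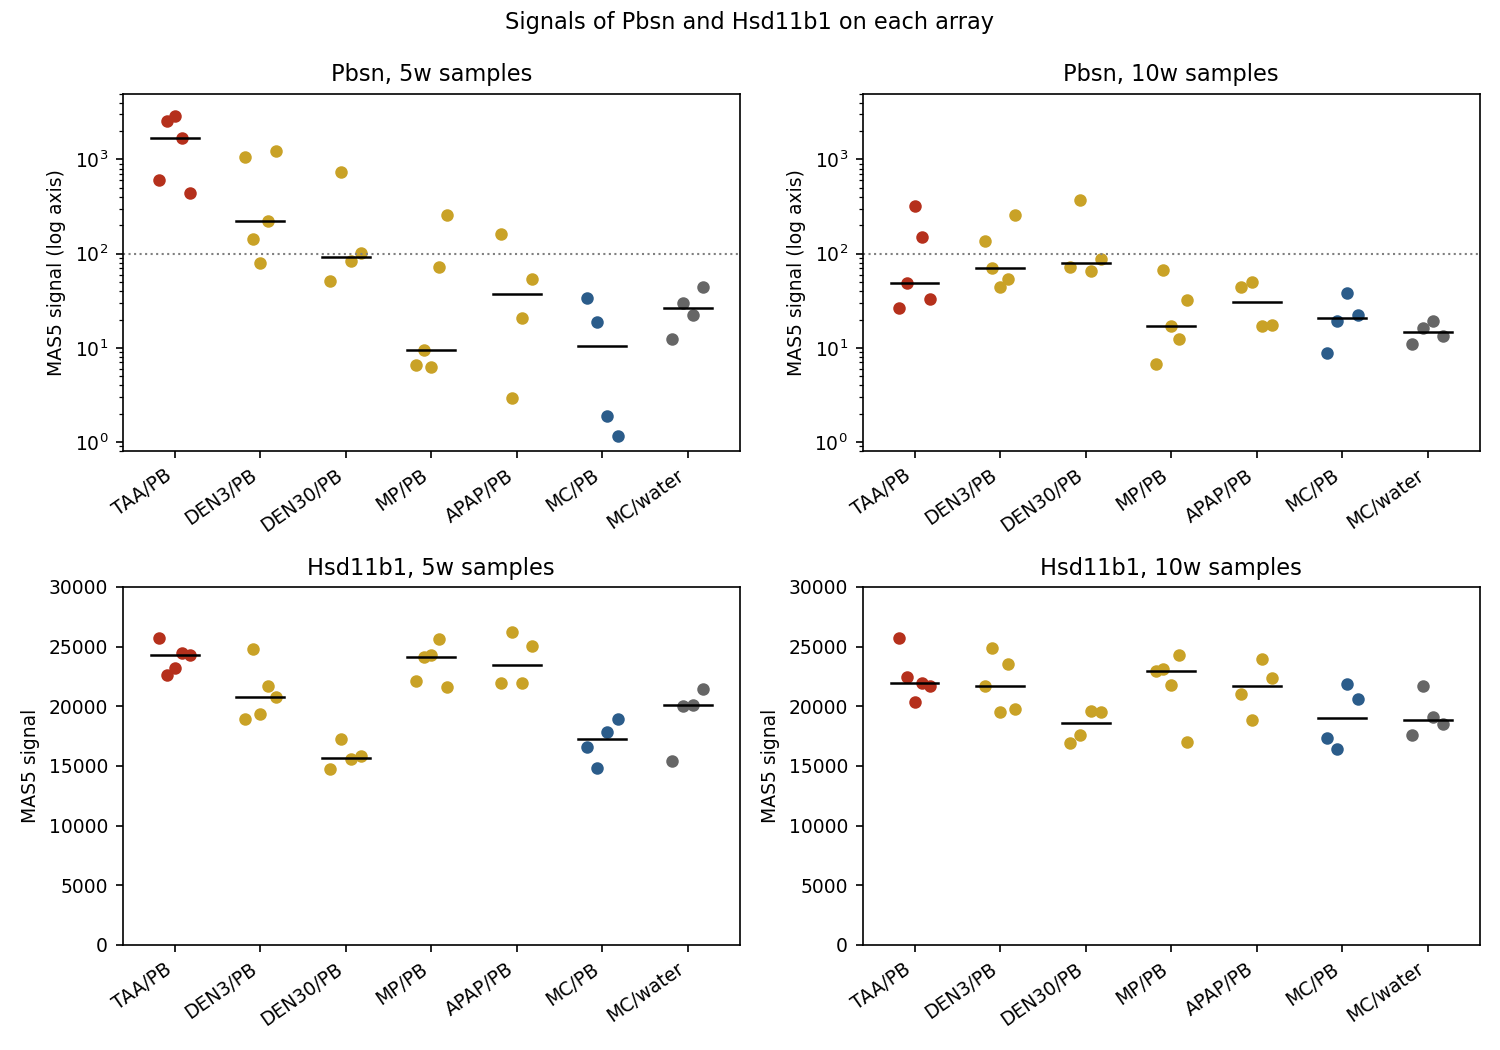
MAS5 signal of Pbsn (upper panels, log axis, dotted line at 100) and Hsd11b1 (lower panels, linear axis from 0) on each array, by group, at 5w (left) and 10w (right). Points are single livers and bars are medians. At 5w the TAA/PB livers hold 437 to 2861 units of Pbsn and the MC/PB livers 1.15 to 33.6.

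Because so few genes passed, the genes with the smallest unadjusted p whose groups did not overlap were read next, up to 10 a direction. They are given as values: none passed the adjusted threshold. Groups did not overlap for 180 genes (1.72%), 101 of them higher in TAA/PB (0.963%) and 79 lower (0.753%).

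Among the 8 higher ones, Adgrg2, an adhesion G protein-coupled receptor, read 574, 485, 461, 635 and 463 in TAA/PB against 277, 219, 12.1 and 123 in MC/PB, a difference of 1.94 ± 0.47 on the log2 scale. Phgdh, which catalyses the first step of serine synthesis from glycolysis, read 198, 197, 425, 178 and 135 in TAA/PB against 63.7, 124, 40.5 and 15.1 in MC/PB (1.61 ± 0.39). One MC/PB liver was far below the other 3 for Adgrg2, and for Phgdh 3 of the 4 MC/PB livers were below 100. Bco1, the enzyme that cleaves beta-carotene to retinal, read 1774, 1277, 1612, 1351 and 1304 in TAA/PB against 993, 376, 1117 and 156 in MC/PB (1.45 ± 0.34). The TAA/PB livers were close together and the MC/PB livers spread over a wide range: the difference was 0.67 within the first array set and 2.31 within the second. Cygb, the globin of hepatic stellate cells, read 222 to 297 in TAA/PB and 112 to 207 in MC/PB (0.64 ± 0.14). Pip4p2, a phosphoinositide phosphatase, read 520.1 to 919 in TAA/PB and 230.5 to 368 in MC/PB (1.10 ± 0.28), and its second probe set differed the same way (1.32 ± 0.32). Snx10, a sorting nexin of endosomes, differed by 1.15 ± 0.29 (0.54 ± 0.27 on its second probe set), Plcxd2 by 1.00 ± 0.22 and Npdc1 by 0.66 ± 0.17, and the limma adjusted p of these 8 genes lay between 0.156 and 0.236. For Snx10 and for Plcxd2 only 1 of the 4 MC/PB livers reached 100, so the size of either difference is poorly set.

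The 10 lower ones came nearest to the threshold with Slc16a10, a membrane transporter of aromatic amino acids and thyroid hormone. It read 295, 177, 278, 276 and 224 in TAA/PB against 428, 354.5, 502 and 386 in MC/PB. The difference was -0.70 ± 0.14 (SE, log2), with an adjusted limma p of 0.0911. It was -0.65 in the first array set and -0.67 in the second. Cyp3a9, a rat cytochrome P450 of the pregnane-inducible 3A family, read 1992, 2607, 8959, 6712 and 4641 in TAA/PB against 13294, 11136, 11064.5 and 12824 in MC/PB (-1.48 ± 0.36, adjusted p = 0.236). The 4 MC/PB livers were close together, and the TAA/PB livers differed among themselves by more than the gap to MC/PB. MC/water livers, which never had phenobarbital, read 2737 to 7394. Enzymes and carriers of fat metabolism were also here: Acacb, the acetyl-CoA carboxylase whose product restrains fatty acid oxidation, read 34.9 to 114 in TAA/PB and 143 to 174 in MC/PB (-0.997 ± 0.26), and Cd36, a fatty acid uptake receptor, read 335 to 469.9 in TAA/PB and 545 to 1016 in MC/PB (-0.74 ± 0.19). Ddhd1, a phospholipase that acts on phosphatidic acid, read 329.5 to 829.2 in TAA/PB and 892 to 2448 in MC/PB (-1.39 ± 0.34), while Irx1, a homeobox transcription factor, read 182.5 to 405 in TAA/PB and 417 to 578 in MC/PB (-0.82 ± 0.20). Smim29, a small membrane protein, read 83.0, 51.0, 31.4, 13.0 and 121.8 in TAA/PB against 154, 163, 129 and 158 in MC/PB (-1.20 ± 0.27). It was below 100 in 4 of the 5 TAA/PB livers, as was Acacb, so the size of either difference is poorly set. The remaining genes were Cemip, which takes part in hyaluronan breakdown (-0.99 ± 0.29), Arhgap26 (-0.37 ± 0.11), and Fbxo25, an F-box protein of ubiquitin ligases (-0.33 ± 0.09). Every TAA/PB liver was below 100 for Cemip, and a second Arhgap26 probe set gave a difference of 0.12 ± 0.19.

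The 2 within-set differences were over 1.5 times apart for 3 of the 10 higher and 6 of the 10 lower genes.

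**Figure D3:**
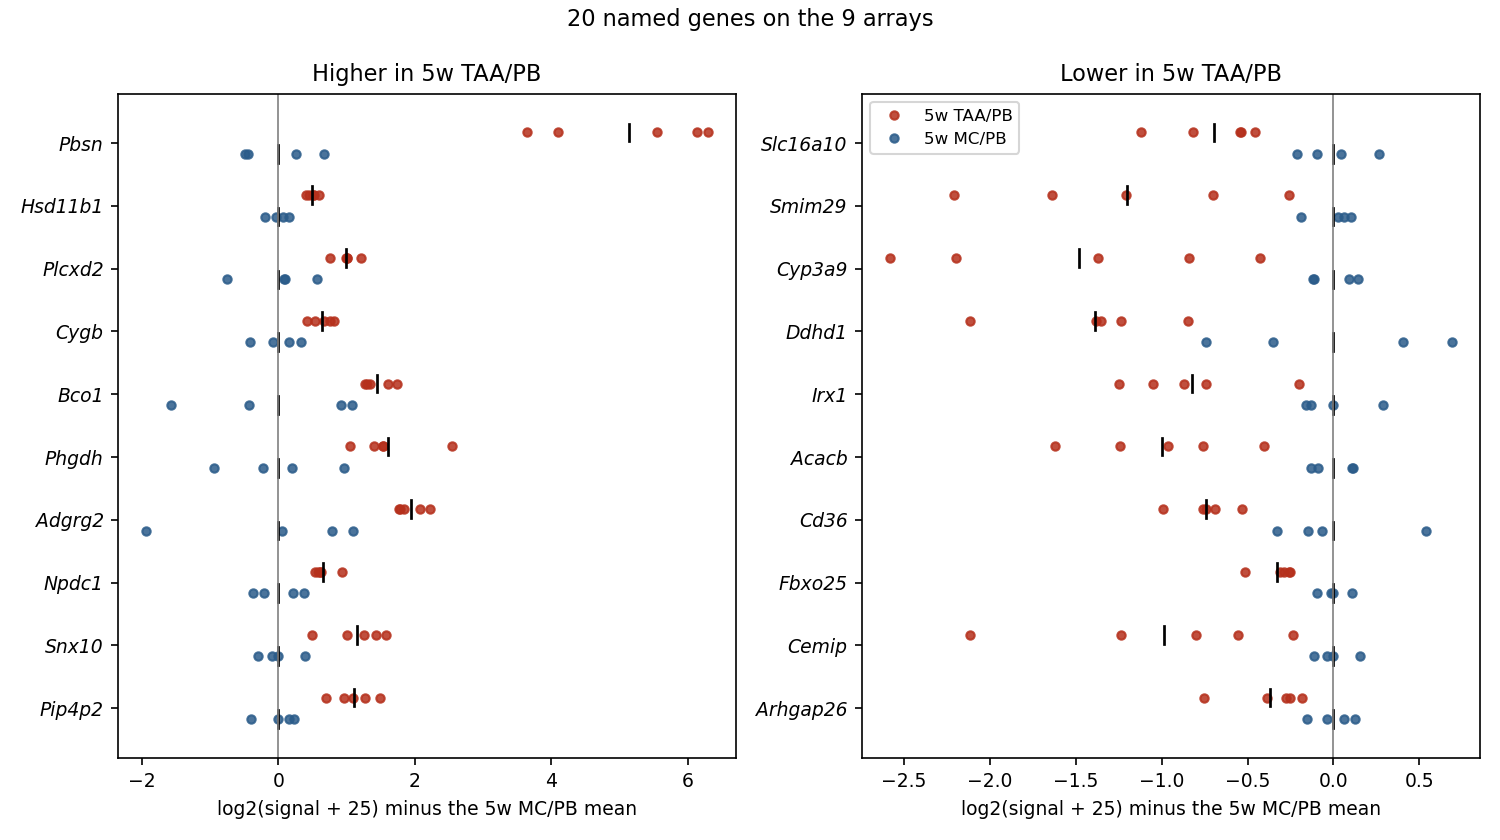
Values of the 20 named genes on the 9 arrays as log2(signal + 25) minus the 5w MC/PB mean (horizontal axis), with TAA/PB points above MC/PB points for each gene and a black bar at each mean. No gene has overlapping groups. MC/PB points of Bco1 and Adgrg2 span over 2 log2 units and those of Hsd11b1 lie close together.

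The MC/PB livers are shared by every comparison with an initiator, so the other groups' values can only be set beside these. By group mean, all 4 other initiated groups lay on the TAA/PB side of MC/PB for 9 of the 10 higher genes (not Hsd11b1). The same held for 9 of the 10 lower genes (not Cemip). Slc16a10 differed from MC/PB by -0.70 in TAA/PB, -0.32 in DEN3/PB, -0.35 in DEN30/PB, -0.66 in MP/PB, -0.72 in APAP/PB and 0.0067 in MC/water. Plcxd2 had a mean log2 difference from MC/PB of 1.00 in TAA/PB, 1.01 in DEN3/PB, 0.99 in DEN30/PB, 0.83 in MP/PB, 0.96 in APAP/PB and 1.23 in MC/water. Bco1 differed from MC/PB by 1.45 in TAA/PB, 1.42 in DEN3/PB, 0.87 in DEN30/PB, 1.28 in MP/PB, 0.96 in APAP/PB and 1.09 in MC/water. For both genes the MC/PB mean was the lowest of the 7 groups. Smim29 differed by -1.20 in TAA/PB, -0.34 in DEN3/PB, -0.23 in DEN30/PB, -0.23 in MP/PB, -0.36 in APAP/PB and -0.23 in MC/water, so TAA/PB was lowest. Cyp3a9 differed by -1.48 in TAA/PB, -0.42 in DEN3/PB, -0.09 in DEN30/PB, -0.85 in MP/PB, -1.40 in APAP/PB and -1.58 in MC/water.

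The comparison with the mean of the other 4 initiated groups leaves MC/PB out but uses the same 5 TAA/PB livers on which the 20 genes were chosen, so their values there are a description. Only Pbsn passed. The difference was -0.91 ± 0.20 for Smim29, -0.91 ± 0.22 for Cemip, -0.73 ± 0.19 for Acacb, 0.86 ± 0.36 for Adgrg2 and 0.75 ± 0.29 for Phgdh. It was 0.05 ± 0.17 for Plcxd2, 0.32 ± 0.25 for Bco1 and -0.09 ± 0.15 for Cd36. For Phgdh the APAP/PB mean lay above that of TAA/PB. Its mean log2 difference from MC/PB was 1.86 in APAP/PB, 1.61 in TAA/PB, 0.72 in DEN30/PB, 0.45 in MP/PB and 0.41 in DEN3/PB.

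At the end of the experiment, with thioacetamide withdrawn for longer and the liver regrown, neither gene passed. Pbsn read 26.8, 48.9, 321, 151 and 32.8 in 10w TAA/PB, against 8.78, 19.1, 38.0 and 22.3 in 10w MC/PB. Only 2 of the 5 TAA/PB livers were then above 100, and the groups overlapped. The difference was 1.21 ± 0.49 (SE, log2), with an adjusted limma p of 0.999. The change of the difference between the weeks was -3.94 ± 0.93, with an unadjusted p of 8.58e-05 and an adjusted one of 0.929. With the animal, sampled at both weeks, as a random block, the same change had an adjusted limma p of 0.02001 (SE 0.74), which passed. Over 10910 genes this test of the change called 0 genes by limma without the animal (0%), with 261 (2.39%; 1.14% higher and 1.26% lower) at unadjusted p under 0.05, and 1 gene, Pbsn, with it.

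Hsd11b1 differed by 0.24 ± 0.10 at 10w (adjusted p = 0.999), reading 20377 to 25728 in TAA/PB and 16401 to 21893 in MC/PB. Bco1 kept nearly the size of its 5w difference, reading 1224 to 1713 in TAA/PB and 296 to 983 in MC/PB (1.37 ± 0.31), but did not pass (adjusted p = 0.247). For Bco1 the groups did not overlap at either week. Ddhd1 differed by -1.28 ± 0.47 and Pip4p2 by 0.70 ± 0.30. The 10w livers come from the same rats, and the MC/PB rats with low Bco1 were replicates 2 and 4 at both weeks. The single gene to pass at 10w was Wsb1, a SOCS-box protein of ubiquitin ligases (1 of 10546, 0.00948%), named here after its values were seen. At unadjusted p under 0.05 there were 487 genes (4.62%), 2.11% of all higher and 2.51% lower. Wsb1 read 1200.1, 799, 1009, 766 and 981 in TAA/PB, against 2001, 1886, 1915 and 1984 in MC/PB. The groups did not overlap, and the difference was -1.03 ± 0.18 (SE, log2), with an adjusted limma p of 0.0357. The call held in 2 of 9 fits that left out 1 array (without TAA/PB replicate 1 or 5; adjusted limma p 0.0188 to 0.227).

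**Figure D4:**
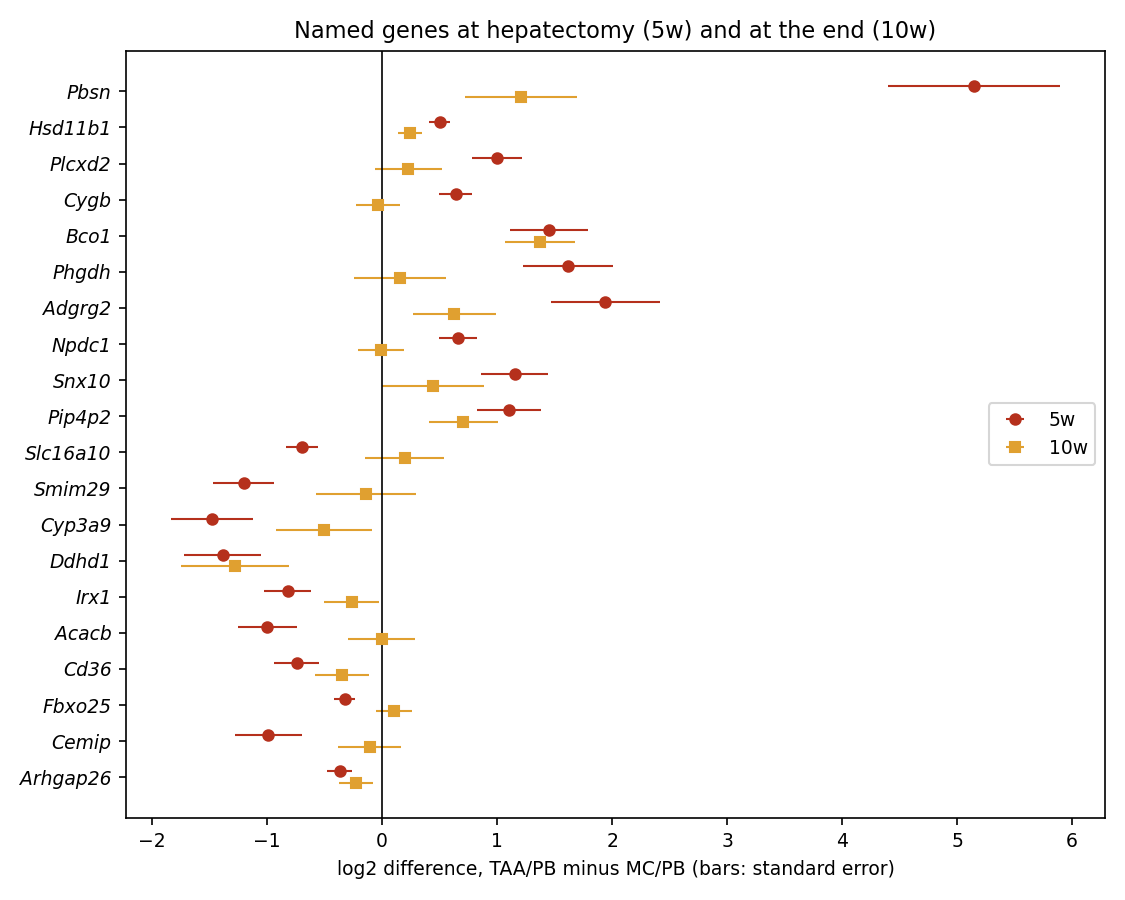
Log2 difference (TAA/PB minus MC/PB) of the 20 named genes at 5w (circles) and 10w (squares), with standard errors from limma. Pbsn is at 5.15 at 5w and 1.21 at 10w, and Bco1 is at 1.45 and 1.37.

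Gene groups of liver function, injury and cell type were read from 32 lists with 904 entries. No member of any list passed the adjusted limma threshold in either direction, against a background of 0.0191% over all genes. Pbsn itself had been taken off the male-biased list after its values were seen, so this count leaves it out. The groups are given by their counts and medians. The counts at an unadjusted p under 0.05 below stand beside 3.4% higher and 2.23% lower over all genes, and those of positive differences beside 51.0%. List medians of the log2 differences ran from -0.18 to 0.42, beside 0.0036 over all genes.

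No enzyme that activates thioacetamide passed the test. Cyp2e1 read 41255, 27944, 30840.4, 34235 and 29716 in TAA/PB against 30432, 32512, 31950.4 and 29676 in MC/PB, with a difference of 0.06 ± 0.11 (95% interval -0.18 to 0.30). Of the 6 members tested, 4 had a positive difference and the list's median was 0.15. Fmo1 read 655 to 2628 in TAA/PB and 654 to 1354 in MC/PB (0.53 ± 0.26), and Fmo4 differed by 0.24 ± 0.12. Por, the reductase that supplies electrons to the cytochromes, differed by 0.29 ± 0.24. Fmo5 had the smallest p of the list and pointed the other way, with 2447 to 5545 in TAA/PB and 5605 to 8736 in MC/PB (-0.87 ± 0.27, adjusted p = 0.499).

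Both groups had drunk phenobarbital. Of 23 tested members of the list of phenobarbital-inducible genes, 18 had a positive difference (median 0.15), 5 had an unadjusted p under 0.05 upwards (3.4% of all genes) and 1, Cyp3a9, downwards (2.23%). Cyp3a18 read 25079.5 to 30009 in TAA/PB and 14485 to 26455 in MC/PB (0.44 ± 0.14), and Ugt2b1, a glucuronosyltransferase, differed by 0.35 ± 0.13. NRF2 targets, which respond to electrophiles, had a positive difference for 17 of 19 members (median 0.15) and an unadjusted p under 0.05 for 4, all upwards (3.4% of all genes). Nqo1 differed by 0.19 ± 0.19 and Hmox1 by -0.33 ± 0.23. Akr7a3, a rat aflatoxin aldehyde reductase, had the largest value there, with 8337 to 15483 in TAA/PB and 5889 to 8960 in MC/PB (0.69 ± 0.20, adjusted p = 0.388). Among glutathione transferases and other conjugating enzymes 24 of 32 differences were positive (median 0.09), with Gstm5 at 0.96 ± 0.26 and Ugt2b7 at 1.03 ± 0.32. The Ugt2b7 signal was below 100 in every MC/PB liver and in 2 of the 5 TAA/PB livers.

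Markers of preneoplastic foci and fetal liver had the highest median of any list, 0.42, with 15 of 18 differences positive and an unadjusted p under 0.05 for 3 (Akr7a3, Car2 and Gpc3), beside 51.0% positive and 3.4% called higher over all genes. Car2, a carbonic anhydrase, read 924, 951, 969, 914 and 476 in TAA/PB against 399, 590.0, 382 and 610.4 in MC/PB (0.73 ± 0.22, adjusted p = 0.499). Replicate 5 was the one TAA/PB liver within the MC/PB range, and the difference was 1.23 in the first array set and 0.30 in the second. Gpc3, an oncofetal glypican, was below 100 in every MC/PB liver and in 4 of the 5 TAA/PB livers (0.75 ± 0.30), and its second probe set, also below 100, gave -0.12 ± 0.34. The marker used most to count foci in rats, Gstp1, read 849 to 1321 in TAA/PB and 658 to 1121 in MC/PB (0.25 ± 0.28, 95% interval -0.33 to 0.83). Ggt1 differed by 0.36 ± 0.30, Afp by 0.19 ± 0.14, Lox by 0.49 ± 0.30 and Adam8, below 100 in all 9 livers, by 0.21 ± 0.25. Set against the mean of the other 4 initiated groups, these markers went both ways. TAA/PB differed there by 0.20 ± 0.15 for Akr7a3, 0.21 ± 0.17 for Car2 and -0.17 ± 0.23 for Gpc3. The difference was -0.31 ± 0.21 for Gstp1, 0.02 ± 0.22 for Ggt1 and 0.08 ± 0.10 for Afp. It was -0.62 ± 0.22 for Lox and -0.74 ± 0.19 for Adam8.

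Genes of the extracellular matrix and of stellate cells had 31 of 43 differences above zero (median 0.13), with 6 at an unadjusted p under 0.05, all upwards, beside 51.0% and 3.4% over all genes. Beside Cygb these included Col6a1 (0.42 ± 0.15), Dcn, the proteoglycan decorin (0.70 ± 0.32), and Mmp2, a gelatinase (0.38 ± 0.17), whose second probe set, below 100 on all 9 arrays, gave -0.04 ± 0.29. The other 2 of the 6, named to complete the count, were the collagens Col4a2 (0.36 ± 0.17) and Col3a1 (0.29 ± 0.14). Acta2, the actin of myofibroblasts, differed by 0.14 ± 0.17, Col1a1 by 0.22 ± 0.24 and Timp1 by -0.01 ± 0.24. The summed signal of 9 stellate cell and myofibroblast markers was 10140.6 to 13053 in TAA/PB and 6765 to 12677 in MC/PB. Krt19 and Spp1, expressed by bile duct cells, differed by 0.00 ± 0.30 and 0.21 ± 0.31. Both were near the background level: Krt19 reached 100 in 3 of 5 TAA/PB and 2 of 4 MC/PB livers, and Spp1 in 2 of 4 MC/PB livers. Of 18 biliary and progenitor genes tested, 1 had an unadjusted limma p under 0.05 upwards (3.4% of all genes). It was Sox4 (0.58 ± 0.16, adjusted p = 0.376), named to complete the count. The cholangiocyte markers Krt7 and Cftr stayed below 100 on all 9 arrays.

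Other resident and blood cells were checked in the same way. Kupffer cell and macrophage markers summed to 6835 to 13084 in TAA/PB and 9993 to 11743 in MC/PB, with Cd68 at 0.04 ± 0.20 and Cd163 at -0.31 ± 0.19. Cd68 was the 1 positive marker of the 6 tested (median -0.16). On the longer Kupffer cell and macrophage list 18 of 25 tested genes had a negative difference (median -0.11), none with an unadjusted limma p under 0.05. Lymphocyte and NK cell markers summed to 397 to 621 in TAA/PB and 554 to 734 in MC/PB, and sinusoidal endothelial markers to 8385 to 10059.6 in TAA/PB and 9037 to 10649.6 in MC/PB. Neutrophil markers summed to 55.8 to 362 in TAA/PB and 132 to 163 in MC/PB, and mast cell markers to 151 to 558 in TAA/PB and 157 to 262 in MC/PB. Only 1 neutrophil, 2 mast cell and 4 lymphocyte and NK cell markers had enough signal to be tested. Cxcr2, S100a8, Kit, Cd2 and Cd8a stayed below 100 on all 9 arrays. None of the markers tested passed, but these 3 cell types were hardly measured by them. Both mast cell markers tested were positive (median 0.70). On the longer lists 10 of 18 lymphocyte and NK cell genes were negative (median -0.03). Of 5 neutrophil and mast cell genes 4 were positive (median 0.13), and 1 had an unadjusted limma p under 0.05 upwards (3.4% of all genes). Erythroid genes had a list median of 0.39 over 6 members, 5 of them positive. Hbb, beta globin, read 21996, 23769, 14461, 31068 and 20016 in TAA/PB against 6047, 27278, 18903 and 20488 in MC/PB (0.44 ± 0.30), so 1 MC/PB liver was low. Alas2 differed by 0.52 ± 0.25, Tfrc by 0.34 ± 0.24 and Car1 by 0.77 ± 0.29. Car1 was below 100 in every MC/PB liver, and with values under 100 set to 100 it was at least 1.18-fold higher in TAA/PB. The part of residual blood in any gene's difference was not tested.

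Pbsn is under androgen control in the rat prostate, so genes whose liver expression is known to differ between the sexes were read beside it. Of 15 male-biased genes 10 had a positive difference (median 0.11) and 4 an unadjusted p under 0.05, all upwards (3.4% of all genes). Cyp2c13 and Cyp3a2, which are 2 of these 4, and Cyp3a9 below are among the genes that also stand on the phenobarbital-inducible list. The counts of these lists thus rest in part on the same genes. Ust5r, an organic anion transporter, read 6979 to 8284 in TAA/PB and 3563 to 6904 in MC/PB without overlap (0.43 ± 0.12, adjusted p = 0.388), and Cyp2c13 differed by 0.17 ± 0.08. Of 14 female-biased genes 9 had a negative difference (median -0.18), with Cyp3a9 and the prolactin receptor Prlr at an unadjusted p under 0.05 downwards (2.23% of all genes). Prlr had been moved to this list after its values were seen. The counts and the median of this list include Prlr, so they are no independent reading beside 2.23%. It read 110 to 467 in TAA/PB and 238 to 1362 in MC/PB (-1.20 ± 0.47, adjusted p = 0.765), and 2 other Prlr probe sets gave -1.26 ± 0.63 and -1.28 ± 0.57. Hao2 pointed the other way (0.42 ± 0.10, adjusted p = 0.236), with 19486 to 24368 in TAA/PB and 13251 to 20485 in MC/PB. Cyp2a1 differed by -0.54 ± 0.27. By group mean at 5w, MC/PB was the lowest of the 7 groups for Ust5r and Hao2. It was the highest for Prlr and Cyp2a1. TAA/PB differed from the mean of the other 4 initiated groups by 0.02 ± 0.09 for Ust5r and -0.04 ± 0.35 for Prlr. This difference was 0.13 ± 0.08 for Hao2, -0.19 ± 0.20 for Cyp2a1, 0.09 ± 0.06 for Cyp2c13 and -0.79 ± 0.27 for Cyp3a9.

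Lipid pathways had small differences. Cholesterol synthesis had a negative difference for 18 of 20 members (median -0.14), none with an unadjusted p under 0.05. Its nearest were Pmvk (-0.19 ± 0.10) and Msmo1 (-0.43 ± 0.24), and Insig1, a regulator of the pathway, gave -0.48 ± 0.33. Fatty acid and triglyceride synthesis had 16 of 22 negative (median -0.07). There Fads2, a desaturase, differed by -0.40 ± 0.18 beside Acacb. PPARalpha targets had 16 of 31 negative (median -0.0016), but Pdk4, a kinase that shuts down pyruvate dehydrogenase, did not overlap between TAA/PB and MC/PB. Its mean log2 difference from MC/PB was -0.53 in DEN3/PB, -0.74 in DEN30/PB, -0.72 in MP/PB, -0.68 in APAP/PB and -0.77 in MC/water. Pdk4 was thus highest in MC/PB by group mean. In TAA/PB it differed from the mean of the other 4 initiated groups by 0.01 ± 0.17. It read 1620.1 to 3427 in TAA/PB and 3927 to 4547 in MC/PB (-0.66 ± 0.22, adjusted p = 0.709), and its second probe set gave -0.33 ± 0.22.

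Perivenous genes, which mark the zone that thioacetamide injures, had 13 of 16 differences above zero (median 0.08). Oat, ornithine aminotransferase, had the smallest p and was lower (-0.63 ± 0.22, adjusted p = 0.709), with 2501 to 4283 in TAA/PB and 3959 to 6330.2 in MC/PB. Aldh1a1 differed by 0.53 ± 0.30 and Cyp1a2 by -0.22 ± 0.24. Periportal genes had 10 of 17 above zero (median 0.02), and those with the smallest p belong to gluconeogenesis and serine breakdown: Pck1 differed by 0.44 ± 0.14 and Sds by 0.83 ± 0.31. Cyp7a1, the rate-limiting enzyme of bile acid synthesis, read 1895, 2037, 1860.0, 876 and 1769 in TAA/PB against 1456, 1020, 942 and 717 in MC/PB (0.68 ± 0.53, adjusted p = 0.983).

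No marker of DNA damage or growth passed the test. Cdkn1a, the p53-induced cell cycle inhibitor, differed by -0.08 ± 0.20 (-0.77 ± 0.40 on its second probe set), Mdm2 by 0.18 ± 0.12 and Ccng1 by -0.0012 ± 0.15. Without MC/PB replicate 4, which was high for both, Cdkn1a differed by 0.20 ± 0.19 and Ccng1 by 0.11 ± 0.16. The proliferation markers Mki67 and Top2a differed by 0.30 ± 0.23 (95% interval -0.17 to 0.77) and -0.19 ± 0.25. In all, 17 of the 24 fixed markers had a positive difference and 7 a negative one, from -0.33 for Hmox1 to 0.68 for Cyp7a1, and Cyp3a2 alone had an unadjusted p under 0.05 (0.15 ± 0.07, adjusted p = 0.866). The other 18 lists held 406 tested entries and none passed. Their medians lay between -0.14 (immediate early and AP-1 genes) and 0.13 (neutrophil and mast cell genes).

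**Figure D5:**
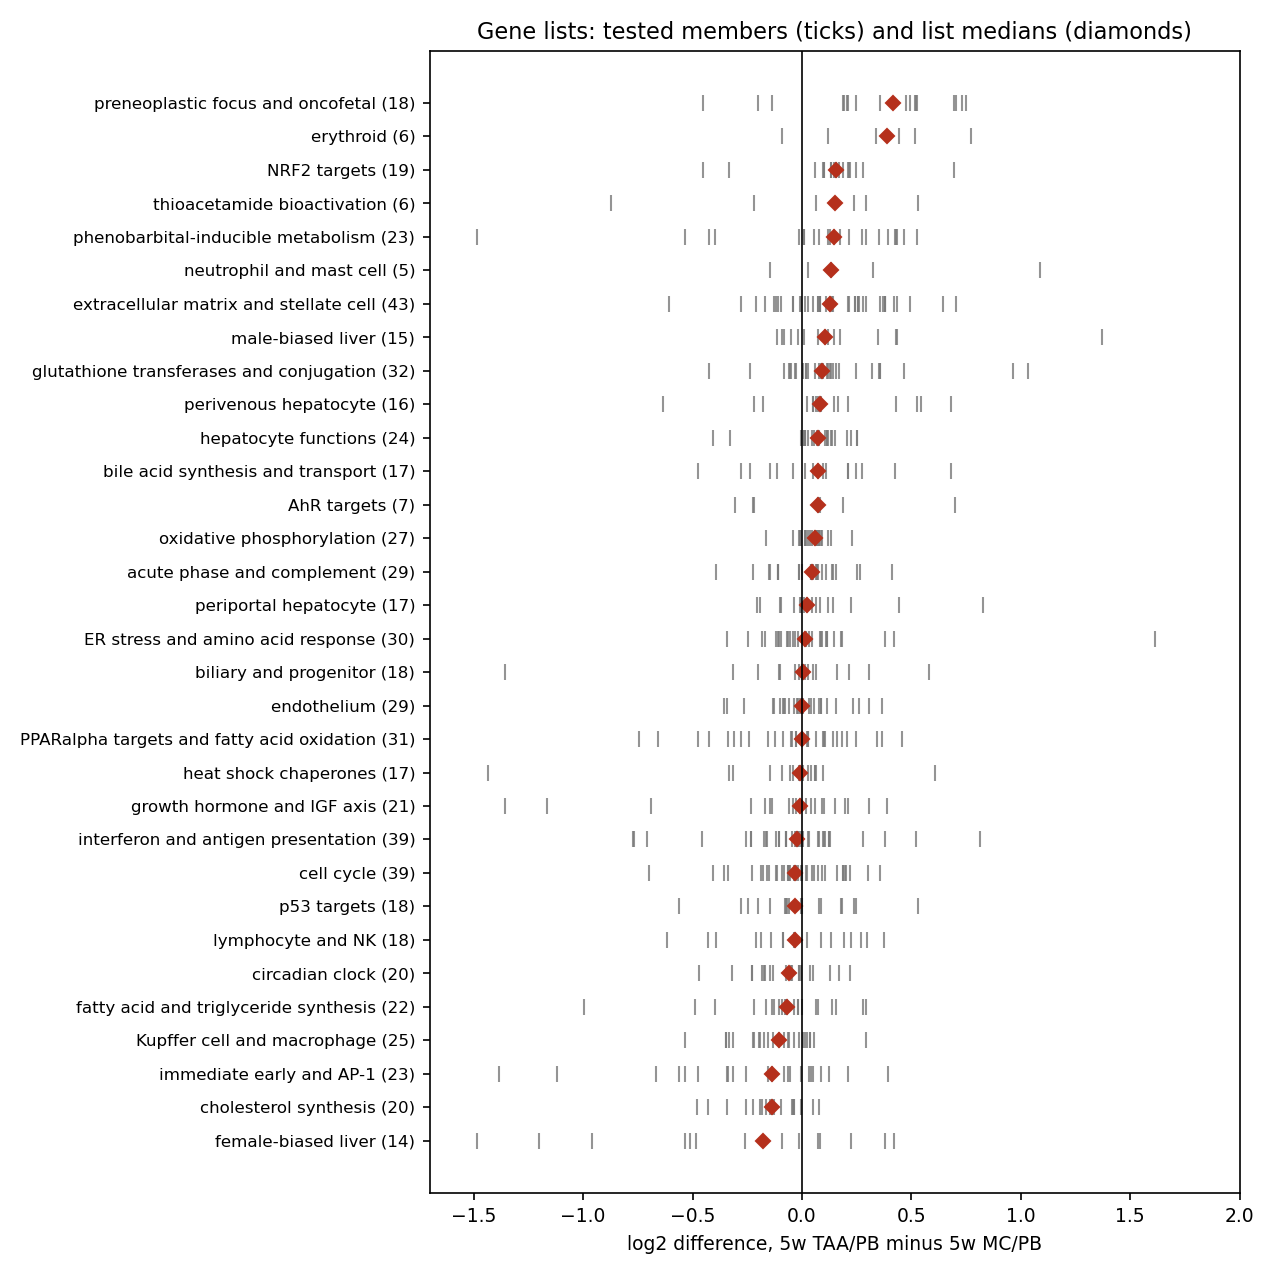
Log2 differences (5w TAA/PB minus 5w MC/PB) of the tested members of 32 gene lists (ticks, with the number of members after each name) and the list medians (diamonds), from high to low. The preneoplastic focus and oncofetal list has the highest median, 0.42, and the erythroid list follows at 0.39.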

How the data were processed

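RNA from rat livers was hybridised by the authors to Affymetrix arrays, and the deposited table holds 1 linear intensity per probe set and sample. The submitters' processing notes name MAS5 5.0 for these values. Their scaling is not given in the sources used here, but the trimmed mean of an array was 500.2 to 500.3 on all 62 arrays, so no rescaling was made. For arrays, the number of samples limits the precision.

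Of 31099 probe sets, 57 were controls, 20826 named 1 gene, 436 several and 9780 none. Each gene took its probe set with the highest mean. Signals plus 25 were put on the log2 scale, and genes with a signal of at least 100 on at least 4 of the arrays in a fit were tested with limma 3.58.1 in R 4.3.3 (lmFit, contrasts.fit, eBayes with trend) over all 31 arrays of a week. P-values were adjusted by Benjamini-Hochberg over all genes. Replicates are separate rats. The fit was tested on simulated data.

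For the change between weeks, the same animals were sampled, per the series' design text, and the deviations of the 5 TAA/PB animals at 5w and 10w correlated at 0.257 to 0.401. The animal block used a correlation of 0.316.

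Named genes were those that passed, filled to 10 a direction by unadjusted p among genes whose groups did not overlap, with 24 listed marker genes and up to 4 members of a list by p. The comparison, the lists and the alternatives were chosen with earlier results of these data known. After values were seen, Pbsn was taken off the male-biased list and Prlr was moved to the female-biased one. Motifs were sought in RefSeq's GRCr8 promoter windows, which hold 15 of the 20 named genes.

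Alternatives were other offsets, no filter, the median probe set, quantile normalization, a fit of all probe sets, a replicate block, the compared groups alone, the array set as a block or alone, no trend, and leaving out each array.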

Additional observations from a re-analysis of the deposited data

Results flagged for a closer look

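A probe set to which the platform annotation gives no gene name lay outside the comparisons by gene and was higher by 1.12 ± 0.16 (SE, log2), with an adjusted limma p of 0.00140 over all probe sets. It read 1065, 895, 1232, 969 and 1076 in 5w TAA/PB, against 518, 475, 364 and 524.5 in 5w MC/PB, with no overlap. It read 839 to 1225 in MP/PB and 859 to 1232 in APAP/PB, 560 to 1039 in DEN3/PB, 619 to 853 in DEN30/PB and 496 to 787 in MC/water. TAA/PB overlapped with MP/PB, APAP/PB and DEN3/PB, and not with DEN30/PB or MC/water.

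Of 88 genes checked in both groups, 9 of 176 sets of replicates (5.11%) held 1 array set apart from the rest, where chance gives about 1 in 20. The gap of the apart array to its nearest neighbour is given as a share of the group's whole range. MC/PB replicate 4 stood apart for both of these p53 targets: Cdkn1a read 1215 there against 542 to 574 in the other 3 (0.931), and Ccng1 read 1328 against 967 to 999 (0.899). In TAA/PB replicate 1, Npdc1 read 513 against 385 to 411 (0.771) and Lect2 read 9077 against 6990 to 7394 (0.785). Spp1 was high in TAA/PB replicate 2, at 171 against 102 to 117 (0.754). Acadvl was low in TAA/PB replicate 3, at 4160 against 4591 to 4732 (0.765). In TAA/PB replicate 4, Fbxo25 read 339 against 396 to 412 (0.796) and Cyp7a1 read 876 against 1769 to 2037 (0.832). Car2 was low in TAA/PB replicate 5, at 476 against 914 to 969 (0.917).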

How the results depend on the processing

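The call of Pbsn held in 10 of 12 alternatives and with each of the 9 arrays left out (log2 difference 3.63 to 7.70 over the alternatives, adjusted limma p 0.000911 to 0.0171 with an array left out), and failed within either array set alone. That of Hsd11b1 held in 7 of 12 and in 4 of 9. The count of 2 genes in 5w TAA/PB against 5w MC/PB became 1 (Pbsn) without the filter, with the compared groups alone and without trend, 1 (Bco1 in place of either gene) within the second set, and 0 within the first set (667 genes there at unadjusted p under 0.05). It was 1 to 5 when an array was left out, with 5 without TAA/PB replicate 5 and 1 without MC/PB replicate 1 or TAA/PB replicate 1, 3 or 4. Against the other 4 initiated groups the count of 1 became 0 without an offset, with the compared groups alone and within either set, and was 0 to 2 with an array left out (0 without TAA/PB replicate 2, 3 or 4, and 2 without 5). At 10w the count of 1 became 0 with quantile normalization, without trend and within either set, 3 with the compared groups alone and 4 over all probe sets, and was 0 to 3 with an array left out (0 without MC/PB replicate 1, 3 or 4 or TAA/PB replicate 2, 3 or 4, and 3 without TAA/PB replicate 5). The change between weeks gave 0 calls with any array left out, in fits without the animal block. It gave 1 with the block and all arrays, and leaving out arrays was not combined with the block. Where limma called 0 genes, 459 to 681 genes had an unadjusted p under 0.05 against the other initiated groups, 392 to 565 at 10w and 217 to 464 for the change between weeks.

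Same-numbered livers of TAA/PB and MC/PB correlated at 0.094 to 0.160 in their deviations, so the numbers were not taken to pair the animals. With the number as a replicate block, 8 genes passed (5 higher and 3 lower, among them Pbsn, Hsd11b1, Acacb and Irx1), and 0 passed against the other initiated groups. No result that passed changed sign. The cause of these changes was not tested. Signals under 100 carry little information at 4 or 5 arrays a group. This limits Pbsn, Car1, Phgdh, Plcxd2 and Snx10 in MC/PB, Smim29, Acacb and Cemip in TAA/PB, and Gpc3, Adam8 and Ugt2b7 to bounds or weak values.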
